A study of Mus musculus with 8 samples.

Results

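p53 binding was examined at 4 integrin subunit genes, *Itgb4*, *Itgb1*, *Itgb6* and *Itga8*, and at *Rbms1* and *Pla2r1*, the neighbours of *Itgb6* on chromosome 2. These 6 genes were chosen because the authors' deposited table assigns to each of them a region with higher p53 ChIP-seq signal after bleomycin, and they were selected on that readout with earlier results of these data known. They are 6 of the 1425 genes in the table. Since *Itgb6* and *Rbms1* are assigned the same region, they hold 5 of the 915 BLM-enriched regions. All results on the 5 regions as a set are therefore descriptions of what the selection used, and no test was run on them.

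Alveolar organoids were grown in Matrigel from sorted AT2 cells (EPCAM+ MHCII+ CD31- CD45-), the surfactant-producing progenitors of the alveolar epithelium, of wild-type mice. The mice of the study were male, and no engineered allele is given for these samples. Organoids received DMSO (CTRL) or 100 μM bleomycin (BLM), a drug that breaks DNA, for 24 h, and chromatin was precipitated with the rabbit monoclonal antibody D2H9O against p53. There were 2 CTRL and 2 BLM libraries, from 2 independent mice in all, and which libraries share a mouse is not stated. The lists hold peaks and no expression values, so the labelled cell type could not be checked against marker genes.

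Integrins are cell surface receptors made of an alpha and a beta chain that bind matrix proteins and link them to the cytoskeleton. The beta1 chain, encoded by *Itgb1*, pairs with the largest number of alpha chains, among them alpha8 (*Itga8*), which binds nephronectin and fibronectin. The beta4 chain (*Itgb4*) pairs with alpha6 and anchors epithelia to laminin-332 through hemidesmosomes. The beta6 chain (*Itgb6*) is largely confined to epithelia, and as alpha v beta6 it binds the latent form of TGF-beta and activates it, a step with a known role in lung fibrosis. *Rbms1* encodes an RNA-binding protein, and *Pla2r1* a receptor for secreted phospholipases A2. p53 binds DNA at paired copies of a short palindromic sequence, often far from the genes it controls.

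The lists held 50430 and 48743 peaks in CTRL replicates 1 and 2, and 39577 and 41451 in BLM replicates 1 and 2. Counts of peaks in a window are to be read beside these list sizes. Each peak has a fold enrichment, the authors' ratio of ChIP signal at the summit over local background, which is the level given throughout. Because the lists differ in length and in their median fold enrichment (7.37 and 7.29 in CTRL, 6.67 and 6.59 in BLM), each peak is also placed by its percentile within its own list, with 100 as the highest. The median peak width was 330 and 322 bp in CTRL and 281 and 279 bp in BLM. No read counts were used, so the depth is unknown and no interval or floor is given. With 2 libraries a group, a difference is set against the spread between those libraries only, which may be partly technical. Where no peak was called, signal below the calling threshold cannot be told apart from none.

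After bleomycin, a p53 peak stood over each of the 5 regions in both BLM libraries, at fold enrichments from 6.58 to 54.9. The regions fell into 2 kinds. Those of *Itgb4* and *Itgb1* were already called in both CTRL libraries and had the highest values after bleomycin, whereas those of *Itgb6*/*Rbms1*, *Itga8* and *Pla2r1* were BLM-only, that is, present in both BLM lists and absent from both CTRL lists. Of all 915 enriched regions, 56.8% were BLM-only, so that 3 of 5 is near the share in the whole list. The median percentile of the 5 regions was 87.2 in BLM replicate 1 and 78.4 in BLM replicate 2, against 88.5 and 86.1 over all enriched regions called there.

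**Figure D1:**
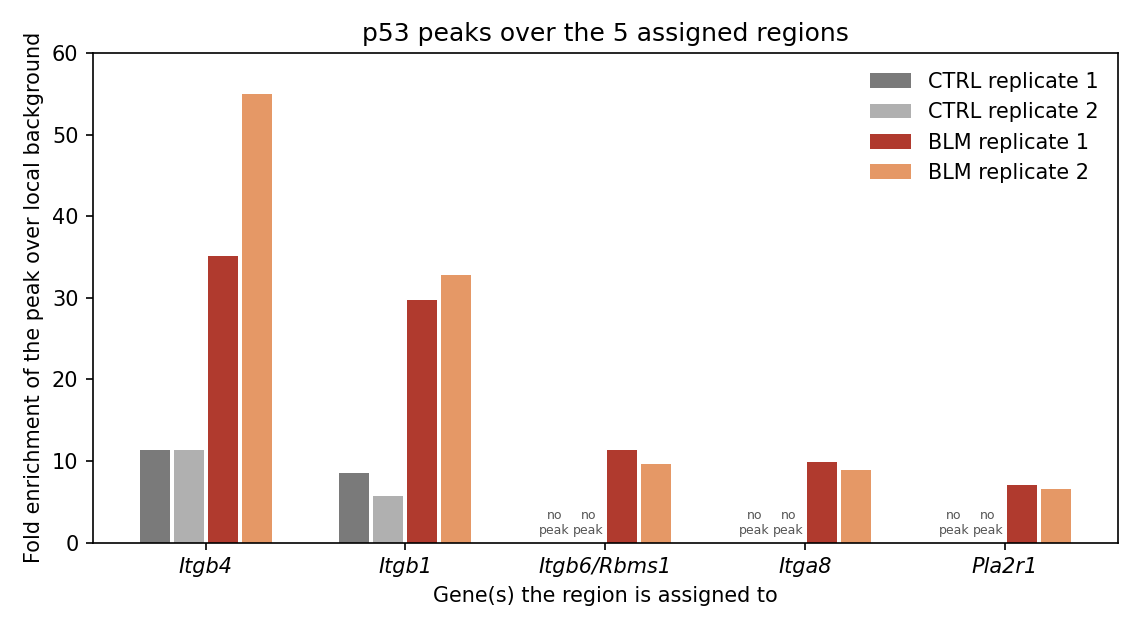
Fold enrichment (vertical axis, linear, from 0) of the p53 peak over each of the 5 assigned regions, 1 bar for each library. The 2 BLM bars stand above the 2 CTRL bars at *Itgb4* and *Itgb1*, and no CTRL peak was called at the other 3 regions.

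*Itgb4* had the strongest of these regions and the only one close to the start of its gene. The region lies at chr11:115861082-115861481 (GRCm39), 4270 bp upstream of the start of transcription (TSS), and it is assigned to no other gene. On the GRCm38.p6 annotation *Itgb4* follows *Sap30bp*, and the region is upstream of the annotated *Itgb4* span. The fold enrichment of its peak was 11.4 in CTRL replicate 1, 11.3 in CTRL replicate 2, 35.2 in BLM replicate 1 and 54.9 in BLM replicate 2. The CTRL mean was 11.3 ± 0.0569 (SD, n = 2) and the BLM mean 45.1 ± 14.0 (SD, n = 2), a ratio of 3.97. The groups did not overlap, and the difference of 33.7 exceeded the spread within either group. The region was selected on this contrast, so this describes what the selection used. In the BLM lists its peak held rank 125 and rank 55, at percentiles 99.7 and 99.9, against 77.7 and 77.4 in CTRL. Among the enriched regions alone it ranked 107 in BLM replicate 1 and 52 in BLM replicate 2 by fold enrichment.

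The position of this peak hardly differed between the libraries, while its width did. All 4 summits lay within 13.5 bp of the middle of the region, and the 2 CTRL summits were 4 and 1 bp from the mean BLM summit. The called peaks were 216 and 231 bp wide in CTRL and 491 and 496 bp wide in BLM.

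None of the other *Itgb4* peaks shared this direction in both BLM libraries when overlapping peaks were compared. At the promoter, 1 peak covered the TSS in each CTRL library, with a summit 239 and 248 bp upstream and a fold enrichment of 13.4 and 15.9. In both BLM libraries, whose lists had narrower peaks by median, no called peak covered the TSS, and the same stretch held 2 narrower peaks. The upstream peak had its summit 229 and 224 bp before the TSS, at a fold enrichment of 5.22 and 6.0. The downstream peak had its summit 296 and 261 bp after the TSS, at 3.25 and 10.6, so that the BLM libraries also differed from each other there. The window of 50 kb on each side of the TSS held 8 and 9 peaks in CTRL and 9 and 8 in BLM. Peaks of the 4 libraries sharing at least 1 bp were joined into regions, and 6 of the 11 joined regions at *Itgb4* were called in all 4 libraries. The assigned region was the only 1 of the 6 at which both BLM percentiles exceeded both CTRL percentiles, 3 had both BLM percentiles below both CTRL percentiles, and at 2 they overlapped. Over all joined regions called in all 4 libraries, 11.8% had both BLM percentiles above and 30.5% had both below, so the direction seen at the other *Itgb4* regions was also the commoner direction in the genome.

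**Figure D2:**
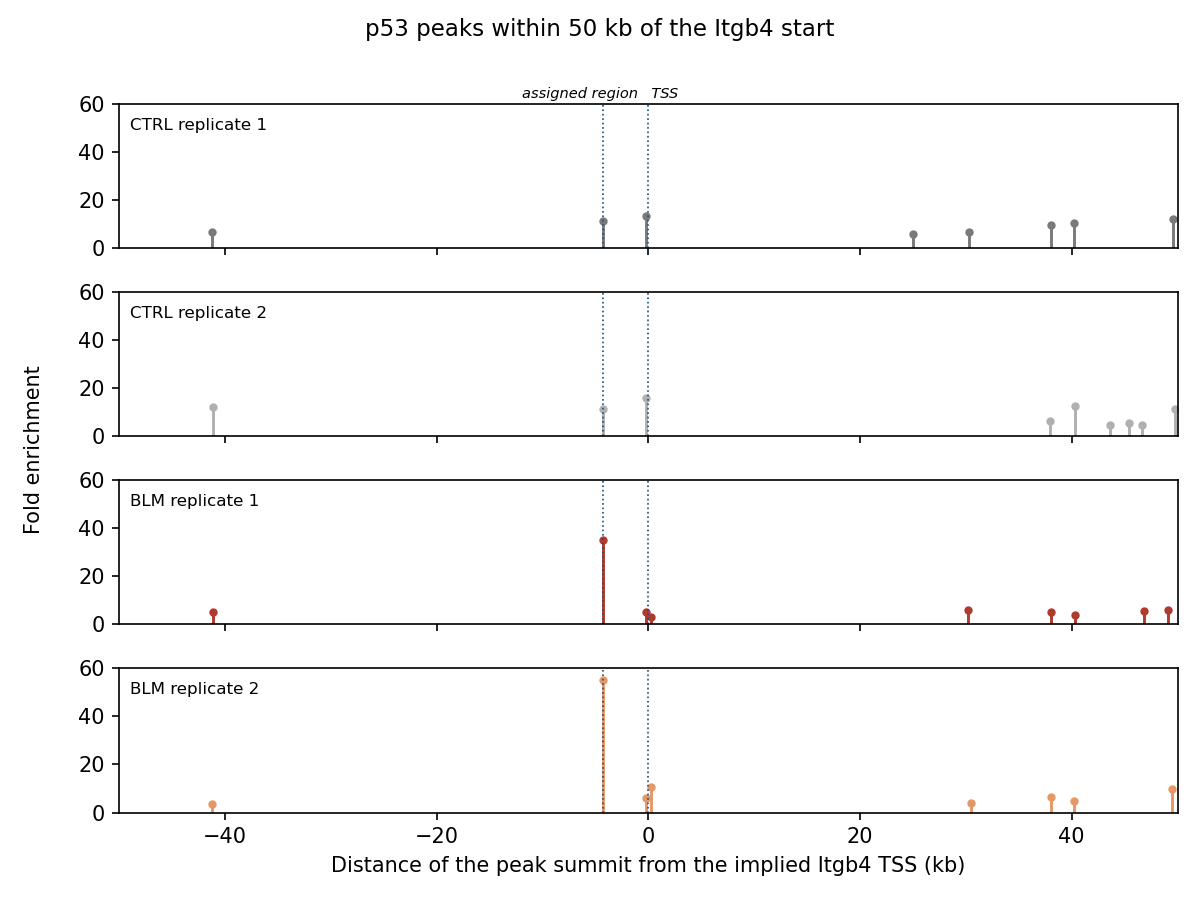
Fold enrichment (vertical axis) of each peak within 50 kb of the implied *Itgb4* TSS against the distance of its summit from the TSS (horizontal axis, kb, in the direction of transcription), 1 panel for each library. The peak over the assigned region reaches 35.2 and 54.9 in the BLM panels, and the other peaks stay at or below 15.9 in every panel.

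*Itgb1* was assigned a region at chr8:129222669-129223068 (GRCm39), 189267 bp upstream of its TSS. The same region is assigned to *Nrp1*, the gene of neuropilin-1, a co-receptor for semaphorins and VEGF, at 137103 bp downstream of the *Nrp1* TSS. The *Nrp1* span is 146886 bp long on GRCm38.p6, so the region lies inside *Nrp1*, 9783 bp before its far end, and is nearer to the *Nrp1* TSS than to that of *Itgb1*. Whether it is exonic or intronic was not determined. The fold enrichment was 8.58 in CTRL replicate 1, 5.76 in CTRL replicate 2, 29.7 in BLM replicate 1 and 32.8 in BLM replicate 2. The CTRL mean was 7.17 ± 2.00 (SD, n = 2) and the BLM mean 31.2 ± 2.19 (SD, n = 2), a ratio of 4.35, with no overlap between the groups. This region too was selected on that contrast. Among the enriched regions it ranked 143 in BLM replicate 1 and 122 in BLM replicate 2. By percentile the peak was at 61.0 and 28.3 in CTRL and at 99.5 and 99.6 in BLM.

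The CTRL peaks over this region were not centred where the BLM peaks were. The BLM summits lay 34 and 44 bp to the right of the middle of the region. The CTRL replicate 1 summit lay 382 bp to the left and the CTRL replicate 2 summit 56 bp to the left, 421 and 95 bp from the mean BLM summit. Both BLM libraries also had a separate, weaker peak 444 bp to the left of the middle, with fold enrichments of 6.77 and 6.07. The 682-bp peak of CTRL replicate 1 spanned that position and the assigned region, so the value of 8.58 in this library was read at a summit near the weaker BLM peak. Over all enriched regions with a CTRL replicate 1 peak, 24.1% had their summit more than 100 bp from the mean BLM summit, and the median was 29.8 bp. The ratio of 4.35 therefore compares different positions in CTRL replicate 1.

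**Figure D3:**
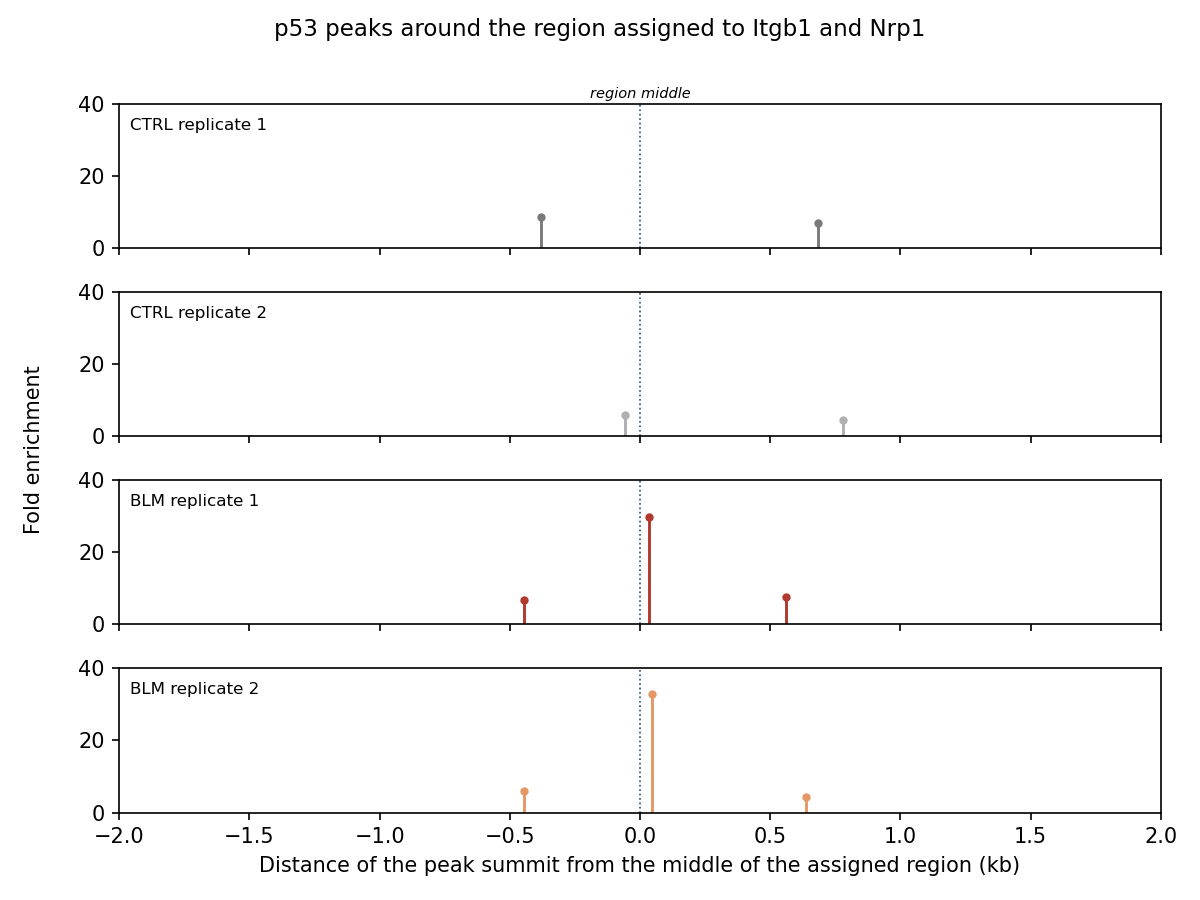
Fold enrichment (vertical axis) of each peak against the distance of its summit from the middle of the region assigned to *Itgb1* and *Nrp1* (horizontal axis, from 2 kb before to 2 kb after), 1 panel for each library. Within these 2 kb the BLM panels show a central peak at 29.7 and 32.8 with a weaker peak on each side, and the CTRL panels show peaks of at most 8.58.

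At the *Itgb1* promoter itself, a p53 peak was called in all 4 libraries. The peak covered the TSS, with summits from 6 to 46 bp after it and fold enrichments of 20.9 and 18.2 in CTRL and 19.5 and 13.9 in BLM, which overlapped between the groups. A second joined region, 3437 bp upstream, was at 17.8 and 21.4 in CTRL and at 22.0 and 27.6 in BLM. Both BLM values were above both CTRL values, but the gap between the groups was smaller than the difference within either group. By percentile it stood at 94.0 and 97.5 in CTRL and 98.9 and 99.4 in BLM. The TSS window of 50 kb held 6 peaks in either CTRL list and 4 and 5 in the shorter BLM lists. The window around the assigned region held 14 in either CTRL list and 11 and 10 in BLM. The 250 bases before the *Itgb1* start are shown because a called peak covers all of them in both BLM libraries and most of them in both CTRL libraries (RefSeq, GRCm38.p6, chr8:128685404-128685653, plus strand, 5′ to 3′).
Itgb1: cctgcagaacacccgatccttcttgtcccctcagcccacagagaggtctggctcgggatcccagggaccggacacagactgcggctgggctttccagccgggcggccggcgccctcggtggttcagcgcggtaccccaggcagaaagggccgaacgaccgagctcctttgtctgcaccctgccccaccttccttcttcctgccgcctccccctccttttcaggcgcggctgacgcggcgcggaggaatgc

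*Itgb6* and *Rbms1* are transcribed in the same direction, and the region they share lies between their starts, at chr2:60657379-60657778 (GRCm39). It is 153523 bp upstream of the *Itgb6* TSS and 54204 bp downstream of the *Rbms1* TSS, inside the annotated *Rbms1* span of 213688 bp. No peak was called over it in CTRL. Its fold enrichment was 11.4 in BLM replicate 1 and 9.68 in BLM replicate 2, with a mean of 10.5 ± 1.19 (SD, n = 2), at percentiles 87.2 and 78.4. The 2 BLM summits fell on the same base, 1.5 bp from the middle of the region. Over all enriched regions the median distance between the 2 BLM summits was 14 bp. The nearest other peak, 1364 bp to the left on average, was called in all 4 libraries at 4.12 and 5.62 in CTRL and at 4.28 and 8.16 in BLM, and these values overlapped.

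The distances refer to the downstream of 2 RefSeq starts of *Itgb6*, which are 48910 bp apart on GRCm38.p6. Counted on that build from the upstream start, the region is 104613 bp upstream of *Itgb6*. *Rbms1* also has 2 RefSeq starts, 81766 bp apart, and the distance again refers to the downstream one. From the upstream *Rbms1* start the region is 135970 bp downstream. Which gene is nearer therefore depends on the starts used, since the downstream *Rbms1* start is the nearest of the 4, but the upstream *Itgb6* start is nearer than the upstream *Rbms1* start.

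The 207727 bp between the implied *Itgb6* and *Rbms1* starts carried many p53 peaks without bleomycin, 39 and 41 in CTRL and 30 and 28 in the shorter BLM lists. They formed 48 joined regions, of which 20 were shared by all 4 libraries, 7 were CTRL-only (both CTRL lists, neither BLM list), and 1, the assigned region, was BLM-only. Over the genome, 41.6% of joined regions were shared by all 4 libraries, 8.4% were CTRL-only and 2.03% were BLM-only. The interval was examined because of its 1 BLM-only region, so that count cannot be weighed against the background share. In each BLM library the assigned region ranked 9 by fold enrichment among the peaks of the interval. Of the 20 regions called in all 4 libraries, 9 had both BLM percentiles below both CTRL percentiles (45.0%, against 30.5% over the genome), 1 had both above and 10 overlapped.

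The strongest peak of the interval in each library stood 15 to 30 kb upstream of the *Itgb6* start used for the distances, that is, between its 2 RefSeq starts. There 6 joined regions were called in all 4 libraries. The region 29899 bp upstream was at 28.4 and 27.5 in CTRL and at 8.49 and 21.1 in BLM. The region 21035 bp upstream was at 20.7 and 36.0 in CTRL and at 16.0 and 13.0 in BLM. In these examples both BLM values were below both CTRL values, although the libraries within a group also differed widely. The region 16641 bp upstream was at 22.5 and 19.3 in CTRL and at 12.7 and 10.7 in BLM. The region 18751 bp upstream likewise had the lower percentiles in BLM, with 12.4 and 12.7 in CTRL and 9.61 and 7.59 in BLM. The remaining pair overlapped between the groups by percentile. The region 24554 bp upstream was at 20.9 and 23.4 in CTRL and 17.7 and 13.6 in BLM. The region 15490 bp upstream was at 19.0 and 21.7 in CTRL and 17.5 and 22.0 in BLM, the highest value of the interval in BLM replicate 2.

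**Figure D4:**
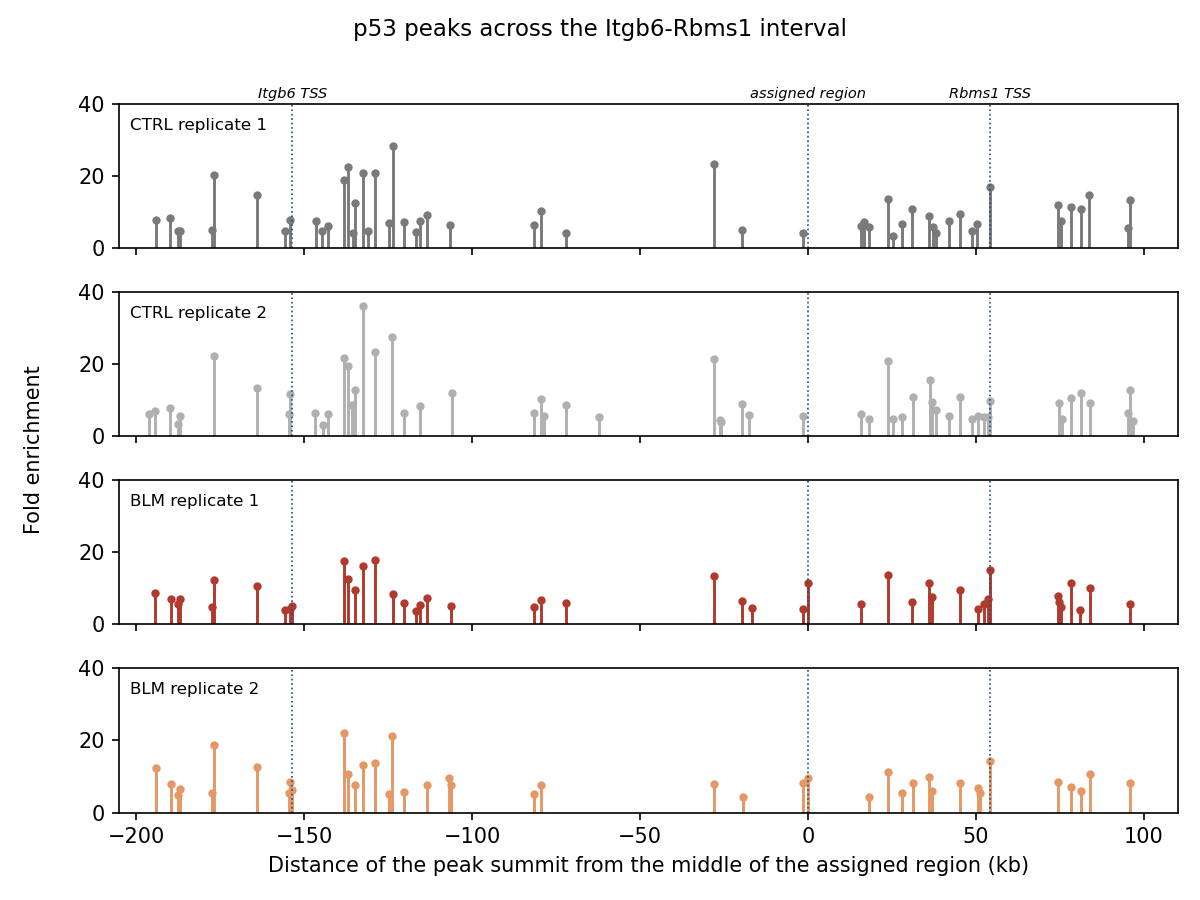
Fold enrichment (vertical axis) of each peak from 50 kb beyond the implied *Itgb6* TSS to 50 kb beyond the implied *Rbms1* TSS, against the distance of its summit from the middle of their shared region (horizontal axis, kb), 1 panel for each library. The group of tall peaks to the right of the *Itgb6* TSS reaches 28.4 and 36.0 in the CTRL panels and 17.7 and 22.0 in the BLM panels, and the assigned region has a peak only in the BLM panels.

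At the *Itgb6* start, the shape of the called peaks differed between conditions. Peaks were also narrower in BLM over the whole lists (medians of 281 and 279 bp, against 330 and 322 bp in CTRL). In CTRL, a single peak 1046 and 917 bp wide covered the TSS, with its summit 637 and 581 bp downstream and a fold enrichment of 7.85 and 11.6. In BLM, 2 peaks were called in the same stretch. Their downstream summits lay 552 and 656 bp after the TSS, at 4.22 and 8.48. A second, narrow peak of 170 and 203 bp covered the TSS, with its summit 53 bp before the TSS in BLM replicate 1 and 1 bp after it in BLM replicate 2, at 5.00 and 6.21. These narrow peaks were among the weaker ones of their lists, at percentiles 21.1 and 43.4, and neither was in an enriched region. Further peaks, with summits 1016 and 1028 bp after the TSS, were called in CTRL replicate 2 and BLM replicate 2, at 6.08 and 5.42. Within 50 kb of this TSS, 26 and 22 peaks were called in CTRL and 21 in each of the shorter BLM lists.

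A peak was called over the *Rbms1* start in all 4 libraries. The peak over the TSS had a fold enrichment of 17.0 and 9.85 in CTRL and of 14.9 and 14.3 in BLM, so that the groups overlapped. By percentile the BLM values were higher, at 95.2 and 93.7 against 92.9 and 69.8. Within 50 kb, 22 and 24 peaks were called in CTRL and 17 and 15 in the shorter BLM lists.

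The 250 bases before the starts of *Itgb6* and *Rbms1* are shown because peaks cover each of these starts and because their base composition differs (RefSeq, GRCm38.p6, minus strand, 5′ to 3′, chr2:60673694-60673943 for *Itgb6* and chr2:60881439-60881688 for *Rbms1*). Capitals mark a match, with 1 mismatch allowed outside its central C and G, to the p53 consensus decamer, that is 3 purines, C, 2 bases that are A or T, G and 3 pyrimidines. This decamer is its own reverse complement, so 1 search covers both strands.
Itgb6: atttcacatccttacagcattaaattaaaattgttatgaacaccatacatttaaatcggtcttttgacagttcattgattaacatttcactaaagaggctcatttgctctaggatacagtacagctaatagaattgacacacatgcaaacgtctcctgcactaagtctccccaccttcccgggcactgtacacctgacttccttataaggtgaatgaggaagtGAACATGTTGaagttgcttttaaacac
Rbms1: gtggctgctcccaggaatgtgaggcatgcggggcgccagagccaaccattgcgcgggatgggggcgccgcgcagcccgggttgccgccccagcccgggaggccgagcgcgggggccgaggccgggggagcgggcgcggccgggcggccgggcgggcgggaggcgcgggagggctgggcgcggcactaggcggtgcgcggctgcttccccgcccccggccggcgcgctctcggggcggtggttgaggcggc
The *Itgb6* sequence holds 1 such match, GAACATGTTG, which begins 27 bases before the start. The *Rbms1* and *Itgb1* sequences hold none. Of all 32851 RefSeq promoters in the table, 44.7% hold at least 1 match of this kind in the same 250 bases. No exact match was found in the 7 promoter sequences of the 5 members that had one (*Itgb4* had none in the table), against 7.13% of all promoters. G and C made up 38% of the bases at *Itgb6*, 82.4% at *Rbms1* and 68.0% at *Itgb1*, with 3, 38 and 21 CpG dinucleotides, and the median over all promoters was 52.4%.

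*Itga8* was assigned a region at chr2:12061036-12061435 (GRCm39), 245498 bp downstream of its TSS. This is beyond the far end of the gene, whose span is 195354 bp, and the region is also assigned to *Ankrd16*, an ankyrin repeat gene, at 277933 bp. The fold enrichment was 9.91 in BLM replicate 1 and 8.90 in BLM replicate 2, with a mean of 9.41 ± 0.711 (SD, n = 2), at percentiles 80.4 and 73.5, and no peak was called in CTRL. It was isolated. No other peak was called within 50 kb of the region, and none within 50 kb of the *Itga8* TSS, in any of the 4 libraries. The summit nearest to the TSS was 117552 to 117632 bp away.

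*Pla2r1* had the weakest region, at chr2:60248413-60248812 (GRCm39), 135040 bp downstream of its TSS. The annotated span of the gene is 135784 bp, so the region lies inside *Pla2r1*, 744 bp before its far end. It is also assigned to *Ly75*, the gene of the endocytic receptor DEC-205, and is nearer to that gene, 35037 bp upstream of its TSS. The fold enrichment was 7.01 in BLM replicate 1 and 6.58 in BLM replicate 2, with a mean of 6.79 ± 0.302 (SD, n = 2) and no peak in CTRL. At percentiles 55.2 and 49.0 it was a middling peak of its lists. No peak was called within 50 kb of the *Pla2r1* TSS in any library. Towards *Ly75*, a peak 33243 bp from the region was called in all 4 libraries, at 20.4 and 11.8 in CTRL and at 9.55 and 11.6 in BLM. A second, 35014 bp from the region and so next to the *Ly75* TSS, was at 9.99 and 6.17 in CTRL. It was at 4.38 in BLM replicate 1 and was not called in BLM replicate 2. This region and that of *Itgb6*/*Rbms1* are 408966 bp apart and are each other's nearest enriched region.

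Over the windows of all 6 genes, 62 and 61 peaks were called within 50 kb of the implied TSSs in CTRL and 51 and 49 in BLM. The whole lists were also shorter in BLM, with 39577 and 41451 peaks against 50430 and 48743 in CTRL. With the windows around the assigned regions included there were 102 joined regions. The 3 assigned regions named above, selected for their signal in BLM, were the only BLM-only ones. Outside the assigned regions, 0 of 97 joined regions near the members were BLM-only and 11 (11.3%) were CTRL-only. Over the genome, 2.03% of joined regions were BLM-only, 8.4% were CTRL-only and 41.6% were shared by all 4 libraries. Of the 102 regions near the members, 11 were CTRL-only and 47 were shared by all 4 libraries. Of these 47, both BLM percentiles were above both CTRL percentiles at 7 (14.9%, against 11.8% over the genome) and below at 15 (31.9%, against 30.5%). Without the assigned regions, 45 were shared by all 4 libraries, of which 5 (11.1%) were above and 15 (33.3%) below. In the *Itgb6*-*Rbms1* interval alone, 9 of 20 regions shared by all 4 libraries were below (45.0%, against 30.5% over the genome). There 7 of 48 joined regions were CTRL-only (14.6%, against 8.4% over the genome). These are small counts of neighbouring regions, and whether they depart from the genome shares was not tested.

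**Figure D5:**
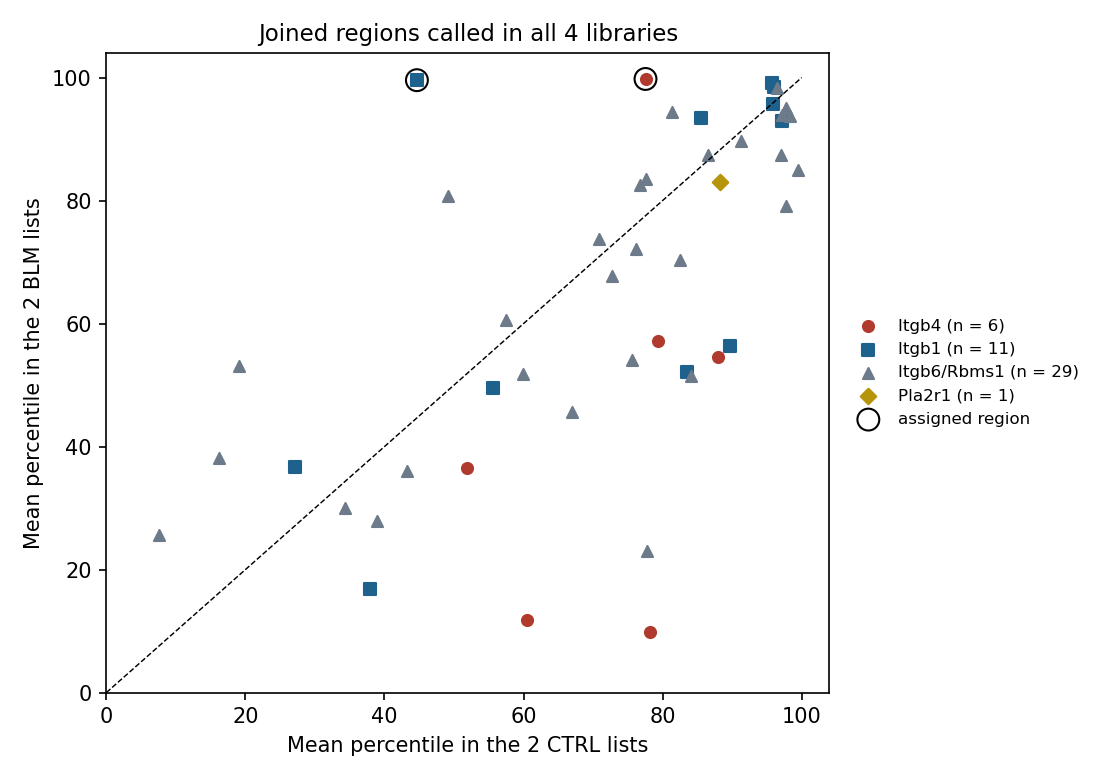
Mean percentile in the 2 BLM lists (vertical axis) against the mean percentile in the 2 CTRL lists (horizontal axis) for the 47 joined regions near the 6 genes that were called in all 4 libraries, with the dashed line where they are equal. The assigned regions of *Itgb4* and *Itgb1*, circled, lie near 100 in BLM, and the other regions lie on both sides of the line.

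Genes that work with these integrins were looked up in the table, which holds 6.28% of the 21896 RefSeq protein-coding genes by symbol. Of 26 integrin subunit genes, 4 (15.4%) were in the table, and these are the members, which were chosen for it. None (0) of 7 hemidesmosome and laminin-332 genes, the partners of beta4, was in the table. Of 14 integrin activators and adaptors, *Ptk2*, which encodes focal adhesion kinase, was assigned a region 176502 bp downstream of its TSS, with no CTRL peak and fold enrichments of 8.26 and 8.82 in BLM. The same region is assigned to *Ago2*. Of 13 genes of integrin ligands or of latent TGF-beta and its partners, 3 (23.1%) were in the table, each with a BLM-only region, as 56.8% of all enriched regions were. *Ltbp2*, of the latent TGF-beta binding protein family, had a region 8913 bp downstream of its TSS, at 7.43 and 6.29, also assigned to *Isca2*. *Fn1*, which encodes fibronectin, had one 110491 bp upstream, at 6.47 and 7.19, also assigned to *Mreg*. *Tnc*, which encodes the matrix protein tenascin-C, had one 854216 bp upstream, at 21.3 and 16.0, and that region was nearer to *Pappa*. None of these BLM values reached those of the *Itgb4* and *Itgb1* regions.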

How the data were processed

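p53 ChIP-seq peak lists of 4 libraries were used (2 CTRL, 2 BLM), grouped by their titles; for the 4 input libraries no list was analysed here. The authors deposited, for each peak called in each library separately, a fold enrichment, which is a ratio to the local background, a −log10 p-value, a −log10 q-value and a score, which is the −log10 q-value times 10 cut to a whole number. No counts were used, and depth is unknown. The submitters' processing notes name Trim Galore 0.6.7, Bowtie2 2.5.1, MACS3 3.0.0b1, DiffBind 3.8.4 and edgeR 3.40.2, with the builds mm39 and mm10. How the authors tested for the 915 enriched regions, and at which threshold, is not given in the sources used here. Their gene table was made with GREAT 4.0.4 on mm10 (from 5000 bp before to 1000 bp after each TSS, with an extension of up to 1000000 bp).

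Peak positions are on GRCm39, since the lists name a contig of that build, and no position was converted. The TSS of each gene was implied by the middle of its region and the signed distance. The strand came from RefSeq (GRCm38.p6) or, for *Itgb4*, which the promoter table lacks, from the offset between builds, which for the plus strand was within 29 bp of that at the nearest gene. Of 148 genes with at least 2 regions and a strand, 140 gave implied TSSs within 10 bp of each other. Peaks sharing at least 1 bp were joined, and windows were 50 kb. Percentiles are by fold enrichment within a list. Overlap and window functions were tested on simulated lists. Python 3.11.15, numpy 2.4.6, pandas 2.3.3 and matplotlib 3.10.9 were used.

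The genes named are the 6 members, the looked-up genes found in the table and the genes co-assigned with either. *Sap30bp*, *St6galnac1* and *St6galnac2*, named for their position, fall outside this rule and were chosen after values were seen. The members and lists were chosen with earlier results of these data known. No test was run, since the members were selected on the same contrast, and an exact permutation test of 2 libraries against 2 could not pass a threshold of 0.05.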

Additional observations from a re-analysis of the deposited data

How the results depend on the processing

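Of 44 alternative values, 32 stayed within 1.5 times the reported count or, for the median percentiles, within the SD of the 2 BLM libraries (6.25). The number of BLM-only assigned regions was 3 in all 7 alternatives. Joining peaks by summits within 200 bp, in place of any overlap, gave 6 BLM-only regions near the members in place of 3. The added regions were the narrow peaks at the *Itgb6* start, those 279 bp after the *Itgb4* start, and a region 12143 bp from the *Itgb1* region. When any overlap was used, all of them lay in joined regions called in all 4 libraries. Over the genome, joining by summits gave 2.71%. Leaving out each library gave 3 to 5 such regions (5 without CTRL replicate 1, BLM replicate 1 or BLM replicate 2), as fewer libraries make the condition weaker. With windows of 25 kb, 27 joined regions were called in all 4 libraries, and the peaks near the 6 TSSs numbered 33 and 33 in CTRL and 28 and 27 in BLM, as the window sets. Of the integrin genes in the table, 1 (*Itgb4*) had a region within 50 kb, and 2 (*Itgb4* and *Itga8*) were the nearer gene of their region. With 1 mismatch allowed, 3 of 7 promoter sequences held a p53 decamer, in place of 0. No paired analysis was possible because the sources used here do not say which libraries share a mouse, and no result comes from a test. The libraries number 2 a group and their depth is unknown, so absent CTRL peaks are absent calls only.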

Other observations

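The 6 genes differed in how far their region lay from the start compared with the other genes of the table. Of the 1425 genes, 12.4% had a region closer than that of *Itgb4*, 50.2% one closer than that of *Rbms1*, and 72.9% to 84.9% one closer than those of *Pla2r1*, *Itgb6*, *Itgb1* and *Itga8*. No other enriched region lay within 1000000 bp of the *Itgb1* region, and the nearest to that of *Itgb4*, 762323 bp away, is assigned to *St6galnac1* and *St6galnac2*.

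The windows of 50 kb end close to called peaks at *Itgb4* and *Rbms1*. At *Itgb4* the last summits inside lay 49129 to 49809 bp from the TSS and the first outside 55518 to 55968 bp. At *Rbms1* the first summit outside in both BLM libraries was that of the assigned region, 54202 bp away, so this region is counted in the window around the region and not in that around the *Rbms1* TSS.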
